A study of Mus musculus with 9 samples.

Results

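Glutathione and antioxidant enzymes were examined in inguinal fat of mice, a white depot under the skin of the groin, as 46 named genes that cover the glutathione transferases, glutathione peroxidases, glutathione synthesis and reduction, peroxiredoxins, superoxide dismutases and the thioredoxin system. A gene was taken from the array rows that the platform annotation names with its symbol alone, and the brightest row was used. Of the 46 genes, 40 had such a row, among 30768 genes with a row of their own. Of these 40, 38 passed the filter on low values and were tested among 16930 genes, namely those whose row mean over the 9 arrays was at or above the median row mean of 5.31 (log2). Gsta2 (row mean 4.65) and Gsto2 (row mean 5.03) lay below it. Prdx1, Gclm, Gsta1 and Gstp2 had rows that also name other genes, and Prdx5 and Prdx6 were not analysed here.

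The study measured RNA of 9 tissues on 9 Affymetrix mouse transcriptome arrays in 3 groups of 3. Cold-exposed controls (Adiponectin-rtTA, TRE-Cre, Zfp423+/+) spent the last 14 days of the diet at 6 °C. Knockouts (Adiponectin-rtTA, Tre-CRE, Zfp423loxP/loxP) and the room temperature controls, which had the genotype of the cold-exposed animals, stayed at room temperature. All groups carried both transgenes and ate doxycycline chow for 28 days from 8 weeks of age. Adiponectin-rtTA is an activator named for an adipocyte gene and TRE-Cre a recombinase that it switches on with doxycycline, so cells of the fat pad other than adipocytes may keep Zfp423, a zinc finger factor that holds adipocytes in the white state. The question of the design was how far tissue without adipocyte Zfp423 resembles tissue in which cold has induced beige adipocytes. Separate mice per array are not stated in the labels, and p-values then measure array-to-array spread alone, which may be technical.

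Glutathione is a small thiol peptide that cells use to reduce peroxides and to tag reactive compounds for removal. Glutathione transferases join it to electrophiles such as the aldehydes of lipid peroxidation. Many glutathione peroxidases use it to reduce peroxides, and peroxiredoxins do the same with electrons from thioredoxin. Superoxide dismutases turn superoxide, a by-product of respiration, into hydrogen peroxide. Many of these genes are targets of the factor Nrf2 (gene Nfe2l2), which binds antioxidant response elements in DNA. Brown and beige adipocytes are rich in mitochondria, where a separate set of these enzymes works.

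The promoters of Gpx8, Txnrd2 and Gsta3 are shown because these genes passed the test in at least 1 comparison, as did Gsta4. Each line gives 300 bases from RefSeq (build GRCm38.p6), from 250 bases before the start of the gene, read 5′ to 3′ on the strand of the gene. Capitals mark the core of the antioxidant response element, searched on both strands as TGAC, any 3 bases (N) and GC.
Gpx8, chr13:113046339-113046638, minus strand: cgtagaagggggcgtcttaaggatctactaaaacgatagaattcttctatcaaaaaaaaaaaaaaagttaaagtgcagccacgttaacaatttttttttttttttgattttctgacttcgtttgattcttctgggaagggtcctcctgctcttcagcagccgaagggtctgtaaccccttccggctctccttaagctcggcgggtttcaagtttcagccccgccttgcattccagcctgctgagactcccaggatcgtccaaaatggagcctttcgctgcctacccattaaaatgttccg
Txnrd2, chr16:18426167-18426466, plus strand: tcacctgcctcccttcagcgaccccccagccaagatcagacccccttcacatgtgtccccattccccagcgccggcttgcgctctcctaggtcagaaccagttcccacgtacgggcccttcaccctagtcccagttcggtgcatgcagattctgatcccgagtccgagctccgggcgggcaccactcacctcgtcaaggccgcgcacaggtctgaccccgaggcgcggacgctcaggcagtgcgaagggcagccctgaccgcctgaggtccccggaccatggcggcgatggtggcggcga
Gsta3, chr1:21240335-21240634, plus strand: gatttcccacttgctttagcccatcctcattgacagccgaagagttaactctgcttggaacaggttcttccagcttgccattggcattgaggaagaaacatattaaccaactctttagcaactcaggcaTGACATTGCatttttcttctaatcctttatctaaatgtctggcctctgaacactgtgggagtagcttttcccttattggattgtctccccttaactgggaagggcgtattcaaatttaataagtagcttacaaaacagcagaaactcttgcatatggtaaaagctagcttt
The Gsta3 window holds 1 match, TGACATTGC, and those of Gpx8 and Txnrd2 hold 0. The core was present in the window of 9 of the 40 members with an entry (22.5%), against 14.0% of 27025 genes and 12.4% of 32851 windows. The 9 were Gsta3, Gstm5, Gstm7, Mgst1, Gclm, Prdx1, Sod1, Txnrd1 and Srxn1. A match is a string in the window and was not tested for binding.

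For over 50% of genes, cold replicate 2 (53.1%), knockout replicate 3 (66.8%) and control replicate 3 (60.4%) had the middle value of their group. Member counts are therefore also given without these 3 arrays. Zfp423 read 7.56, 8.15 and 8.04 in knockouts, against 8.74, 8.22 and 8.40 in room temperature controls (log2, limma adjusted p = 0.256) and the groups did not overlap, but the difference of -0.53 ± 0.20 did not pass. The adipocyte markers stood at mean log2 levels of 17.32 to 17.47 in cold, 16.68 to 17.33 in knockout and 17.09 to 17.48 in control arrays (9 of 10 tested). All 10 markers of mammary or other epithelium had rows below the filter. On 12 of the 38 tested members, 31.6%, at least 2 arrays carried exactly the same deposited value, against 56.6% of all genes tested. For Gsr the 3 knockout arrays shared 1 value, and for Sod3 the 3 cold arrays did, so the spread within those groups is 0 on this scale.

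Of the 38 tested members, Gpx8 rose in knockouts, and Gsta4 and Txnrd2 rose in the cold. Against knockouts, Gsta3, Gsta4 and Txnrd2 were higher in the cold and Gpx8 was lower. In knockouts against controls 1 member passed as higher and 0 as lower (limma, adjusted p under 0.05), where 0.36% of all genes passed, 0.224% higher and 0.136% lower. In cold against controls 2 passed as higher and 0 as lower, against 1.51% of all genes, 1.32% higher and 0.189% lower. In cold against knockouts 3 passed as higher and 1 as lower, against 2.4% of all genes, 1.25% higher and 1.15% lower.

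The medians over the 38 were -0.20 for knockout minus control, 0.06 for cold minus control and 0.34 for cold minus knockout (log2), beside 0.02, -0.02 and -0.03 over all genes. The first was -0.13 without control replicate 1, and the second was 0.19 without control replicate 1 and -0.01 without control replicate 2. At an unadjusted p under 0.05 there were 18, 8 and 18 members, where 16.2%, 20.3% and 26.8% of all genes lay under it. Knockout and control arrays did not overlap for 5 members higher and 12 lower in knockouts, against 9.31% and 8.01% of all genes. Cold and control arrays did not overlap for 11 members higher and 1 lower in cold, against 14.6% and 18.1%. Cold and knockout arrays did not overlap for 20 members higher and 1 lower in cold, against 12.3% and 20.0%. The comparisons share arrays, since each group stands in 2 of them.

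The counts moved with single arrays. Leaving out 1 array at a time gave 0 to 5 members in knockouts against controls, 0 to 6 in cold against controls and 0 to 9 in cold against knockouts. The first count was 0 without control replicate 1 or 3, knockout replicate 2 or 3 or any 1 cold array, 4 without control replicate 2 and 5 without knockout replicate 1. The second was 0 without control replicate 3 or cold replicate 2, 1 without control replicate 2, knockout replicate 3 or cold replicate 1 or 3, and 6 without knockout replicate 1 or 2. The third was 0 without knockout replicate 3, 1 without cold replicate 2, 2 without control replicate 3, knockout replicate 1 or cold replicate 1 or 3, and 9 without knockout replicate 2. The calls over all 16930 genes moved too: they were 828 without knockout replicate 1 in the first comparison, against 61 with all arrays. They were 826 and 981 without knockout replicate 1 and 2 in the second, against 255, and 2704 without knockout replicate 2 in the third, against 406. Without the 3 middle arrays 0 members and 0 of all genes passed in each comparison (limma, 3, 5 and 6 members at an unadjusted p under 0.05).

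Among the members the largest difference between knockouts and controls was that of Gpx8, of the glutathione peroxidase family and the endoplasmic reticulum membrane. Its use of glutathione was not measured here. Gpx8 read 15.16, 15.75 and 15.59 in knockouts, against 12.72, 13.39 and 13.32 in room temperature controls (log2 expression). Every knockout array was above every control array. Gpx8 rose by 2.36 ± 0.29 (SE) log2 units in knockouts, a 5.14-fold difference (limma adjusted p = 0.037, higher in 3 of 3 knockout arrays). Cold did not share this rise: the cold arrays read 12.23, 12.57 and 13.14, overlapping the control arrays, at -0.49 ± 0.29 log2 units (limma adjusted p = 0.361). Cold minus knockout was -2.86 ± 0.29 log2 units (limma adjusted p = 0.00968), so Gpx8 was lower in cold than in knockout tissue.

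Gpx8 overlaps Cdc20b in the RefSeq annotation, whose own row lay between 4.57 and 4.61 on all 9 arrays. Among the marker lists, the thermogenic markers differed most in knockouts, at a median of 4.36 with 5 of 8 past the threshold as higher, and stood at 2.80, 5.41 and 4.53 above the control mean on the 3 knockout arrays. Gpx8 was likewise lowest on knockout replicate 1 and highest on replicate 2. The adipocyte, endothelial and skeletal muscle markers and the mean over all 38 members had this order too. In cold the thermogenic markers stood at 4.28, 4.06 and 3.85 above the control mean, while Gpx8 stood at -0.49 ± 0.29. The T cell markers were higher by a median of 0.73 log2 units in knockouts with 0 of 8 past the threshold (0 at an unadjusted p under 0.05), at mean levels of 9.27 to 10.93 in knockout and 9.15 to 9.87 in control arrays. The progenitor and fibroblast markers had a median of -0.45 with 0 of 7 past the threshold (limma, 4 at an unadjusted p under 0.05), at mean levels of 10.66 to 11.38 in knockout and 11.34 to 11.91 in control arrays. The part of these shifts in the Gpx8 difference was not tested. Gpx8 against control was no longer past the threshold without control replicate 1 or 3, knockout replicate 2 or 3, or any 1 cold array, where the adjusted p lay between 0.0537 and 0.229, with the difference between 2.15 and 2.45. The same held with every gene tested (adjusted p = 0.076) or only these 2 groups in the fit (0.178). Gpx8 in cold against knockouts was no longer past it without knockout replicate 3 or cold replicate 2 (adjusted p = 0.0707 and 0.0618).

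**Figure D1:**
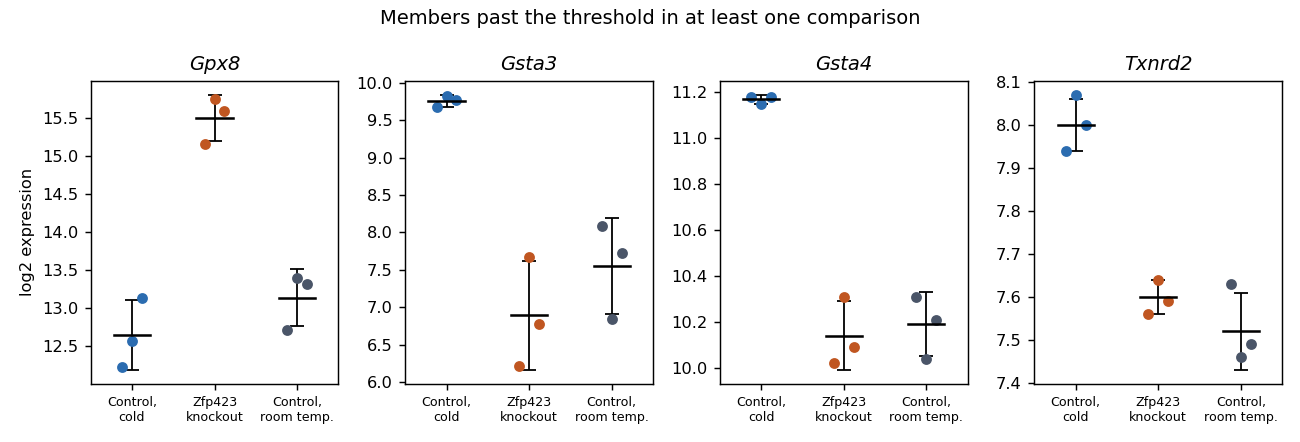
Log2 expression of the 4 antioxidant genes past the threshold in at least 1 comparison, by group; points are arrays, horizontal lines group means and bars the SD (n = 3). Gpx8 stood between 15.16 and 15.75 in knockouts and at or below 13.39 elsewhere, while Gsta3, Gsta4 and Txnrd2 were highest in the 3 cold arrays.

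The other glutathione peroxidases differed by less. Gpx1, the abundant cytosolic peroxidase, stood at -0.19 ± 0.06 log2 units in knockouts against controls, with 15.27, 15.27 and 15.35 in knockouts, against 15.57, 15.35 and 15.54 in controls, and did not pass (limma adjusted p = 0.209). Gpx3, the secreted plasma form, read 13.45, 13.77 and 13.98 in cold, 14.68, 13.91 and 14.49 in knockouts, and 13.98, 14.13 and 13.98 in controls. Cold minus knockout for Gpx3 was -0.62 ± 0.21 and did not pass (limma adjusted p = 0.127). Gpx4, which reduces phospholipid peroxides, had cold arrays (9.18 to 9.35) above those of controls (8.68 to 9.17), at 0.31 ± 0.14 without passing (limma adjusted p = 0.273). Gpx7, like Gpx8 an enzyme of the endoplasmic reticulum, stood at -0.09 in cold and -0.30 in knockouts (limma adjusted p = 0.792 and 0.423), with the sign in knockouts opposite to that of Gpx8.

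Of the alpha class of glutathione transferases, 2 of 4 genes were tested, and 1, Gsta4, passed in cold against controls. Gsta4, which is known for conjugating 4-hydroxynonenal, an aldehyde of lipid peroxidation, read 11.18, 11.15 and 11.18 in cold, against 10.31, 10.04 and 10.21 in room temperature controls. Gsta4 rose by 0.98 ± 0.09 (SE) log2 units in the cold, or 1.98-fold (limma adjusted p = 0.00838, higher in 3 of 3 cold arrays). In knockouts it read 10.02, 10.31 and 10.09, within the control range apart from replicate 1, at -0.05 ± 0.09 (limma adjusted p = 0.842). Cold minus knockout for Gsta4 was 1.03 ± 0.09 (limma adjusted p = 0.00691). The call against control was lost without control replicate 3 or cold replicate 2 (adjusted p = 0.0579 and 0.0638), and that against knockout without knockout replicate 3 (0.0564). Immune cell markers stood lower in the cold. Macrophage markers (10 of 10 tested) had mean levels of 8.51 to 8.68 in cold and 9.24 to 10.17 in control arrays. T cell markers (8 of 10 tested) stood at 8.46 to 8.56 in cold and 9.15 to 9.87 in control arrays. B cell markers (9 of 10 tested) stood at 8.30 to 9.28 in cold and 9.17 to 10.69 in control arrays, which overlap. Skeletal muscle markers (10 of 10 tested) stood at 6.72 to 11.21 in cold and 10.62 to 11.24 in control arrays, lowest in cold replicate 3. The label description of that array has a different prefix from those of the others, with no meaning stated. In these lists 0 genes passed in cold against controls (limma, 5, 4, 4 and 0 at an unadjusted p under 0.05, where 20.3% of all genes lay). The part of these lists in the cold differences was not tested.

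Gsta3, a further alpha transferase, had a wider range. It read 9.68, 9.83 and 9.77 in cold, 6.21, 7.67 and 6.78 in knockouts, and 8.08, 6.84 and 7.72 in room temperature controls (log2). The cold arrays stood close together above all others, while knockouts and controls overlapped. Cold minus knockout was 2.87 ± 0.42 log2 units, a 7.33-fold difference (limma adjusted p = 0.0249). Cold against control stood at 2.21 ± 0.42 and missed the threshold (limma adjusted p = 0.057); it passed in 6 of 18 alternatives, among them those without knockout replicate 1 or 2 (adjusted p = 0.0299 and 0.0211). The call against knockout was lost without control replicate 3, knockout replicate 1 or 3, or any 1 cold array (adjusted p between 0.051 and 0.126). Gsta2, below the filter, read 4.66 to 4.72 in cold, 4.66 in knockouts and 4.57 to 4.66 in controls.

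The mu class, whose 7 genes Gstm5, Gstm7, Gstm6, Gstm3, Gstm2, Gstm1 and Gstm4 neighbour each other in the RefSeq order, was lowest in knockouts. All 7 had negative differences between knockouts and controls (median -0.31, or -0.23 without control replicate 1 and -0.48 without control replicate 2), and all 7 positive ones between cold and knockouts (median 0.48). Of all genes, 42.9% had a negative and 42.5% a positive one in these comparisons, with medians of 0.02 and -0.03 over all genes tested. None of the 7 passed over all genes in either comparison (limma, 4 and 6 at an unadjusted p under 0.05). The shares of all genes under that unadjusted p were 16.2% and 26.8%. Gstm6 had a row mean of 5.59, near the filter of 5.31, and its knockout arrays read 5.38, 5.45 and 5.31. Knockout and control arrays did not overlap for 6 of the 7, each lower in knockouts, where 8.01% of all genes did so in that direction. Cold and knockout arrays did not overlap for all 7, higher in cold, against 12.3% of all genes. Near-identical members of this family can share probes, so the 7 rows are not independent measurements.

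Gstm2, the mu gene with the largest difference, read 12.41, 12.26 and 12.43 in cold, 11.35, 11.84 and 11.66 in knockouts, and 13.07, 11.95 and 12.46 in controls. Its knockout arrays lay below both other groups, with control replicate 2 only slightly above them. Knockout minus control was -0.88 ± 0.27 (limma adjusted p = 0.185) and cold minus knockout 0.75 ± 0.27 (limma adjusted p = 0.14). Gstm7 stood at -0.44 ± 0.11 in knockouts against controls and Gstm4 at -0.53 ± 0.19 (limma adjusted p = 0.126 and 0.222). Averaged over the 7 genes, the arrays stood at -0.05, 0.05 and 0.20 in cold, -0.51, -0.36 and -0.43 in knockouts, and 0.31, -0.26 and -0.05 in controls, as log2 differences from the control mean. The adipocyte markers stood on the same arrays at 0.17, 0.12 and 0.02 in cold, -0.63, 0.02 and -0.19 in knockouts, and 0.17, -0.21 and 0.04 in controls. The progenitor and fibroblast markers stood at -0.73, -0.76 and -0.84 in cold, -0.20, -0.93 and -0.51 in knockouts, and 0.32, -0.24 and -0.08 in controls. The part of either list in the mu class differences was not tested. In a bulk tissue, fewer cells of a type and less RNA per cell cannot be told apart.

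**Figure D2:**
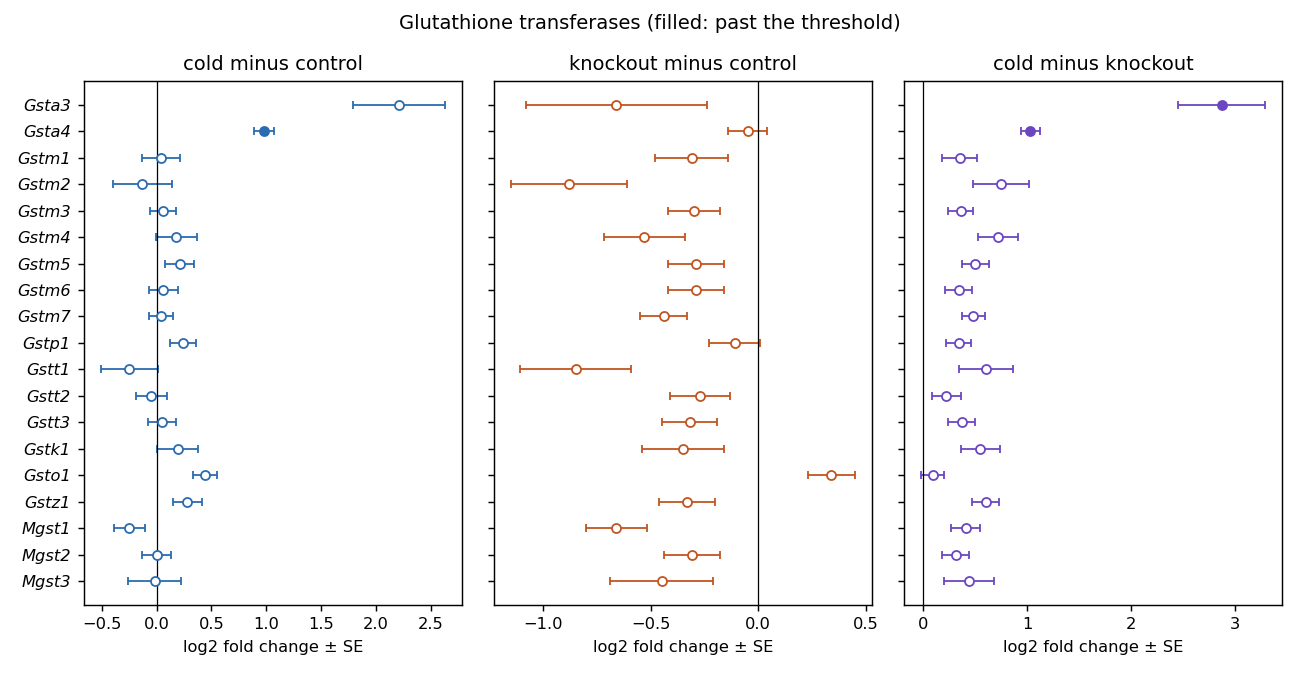
Log2 fold changes with standard errors (bars) of the 16 cytosolic and kappa transferases and 3 membrane (Mgst) genes in the 3 comparisons; filled points passed the threshold. All 19 lie right of 0 for cold minus knockout, and 18 of 19 lie left of 0 for knockout minus control.

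The knockout mean was the lowest of the 3 groups for most other transferases too. Gstt1, a theta class enzyme that metabolises small halogenated compounds, read 9.62, 9.48 and 9.31 in cold, 8.93, 8.77 and 8.89 in knockouts, and 10.34, 9.18 and 9.63 in controls. The knockout arrays were below every other array, and knockout minus control was -0.85 ± 0.26 without passing (limma adjusted p = 0.189). Mgst1, a membrane-bound transferase of the endoplasmic reticulum and mitochondria, stood at -0.66 ± 0.14 in knockouts against controls, with 10.83 to 11.20 against 11.46 to 11.93 (limma adjusted p = 0.0874). Gstz1, which also isomerises maleylacetoacetate in tyrosine breakdown, stood at 0.60 ± 0.13 in cold against knockouts (limma adjusted p = 0.0565). Gstp1 of the pi class, Gstk1 of the kappa class of mitochondria and peroxisomes, Gstt2, Gstt3, Mgst2 and Mgst3 were lower in mean in knockouts than in controls by between -0.45 and -0.11, with 0 past the threshold (limma, 1 at an unadjusted p under 0.05). Gsto1, an omega class enzyme, was the 1 exception to this sign: it read 8.13, 8.09 and 8.13 in cold, 7.81, 8.27 and 7.99 in knockouts, and 7.76, 7.58 and 7.69 in controls. Its differences from control were 0.44 ± 0.11 in cold and 0.34 ± 0.11 in knockouts (limma adjusted p = 0.107 and 0.196).

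Over the 19 transferases, the knockout group had the lowest mean of the 3 groups for 18, or 94.7%, against 29.3% of all genes tested. Of the 19 other members, it did so for 6, or 31.6%. Of the 19, 18 had negative knockout minus control differences, against 42.9% of all genes, with 0 past the threshold. At an unadjusted p under 0.05 (limma) 8 were lower and 1, Gsto1, was higher, where 16.2% of all genes lay under it in either direction. This count describes rows that partly share sequence and was not tested as a set.

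**Figure D3:**
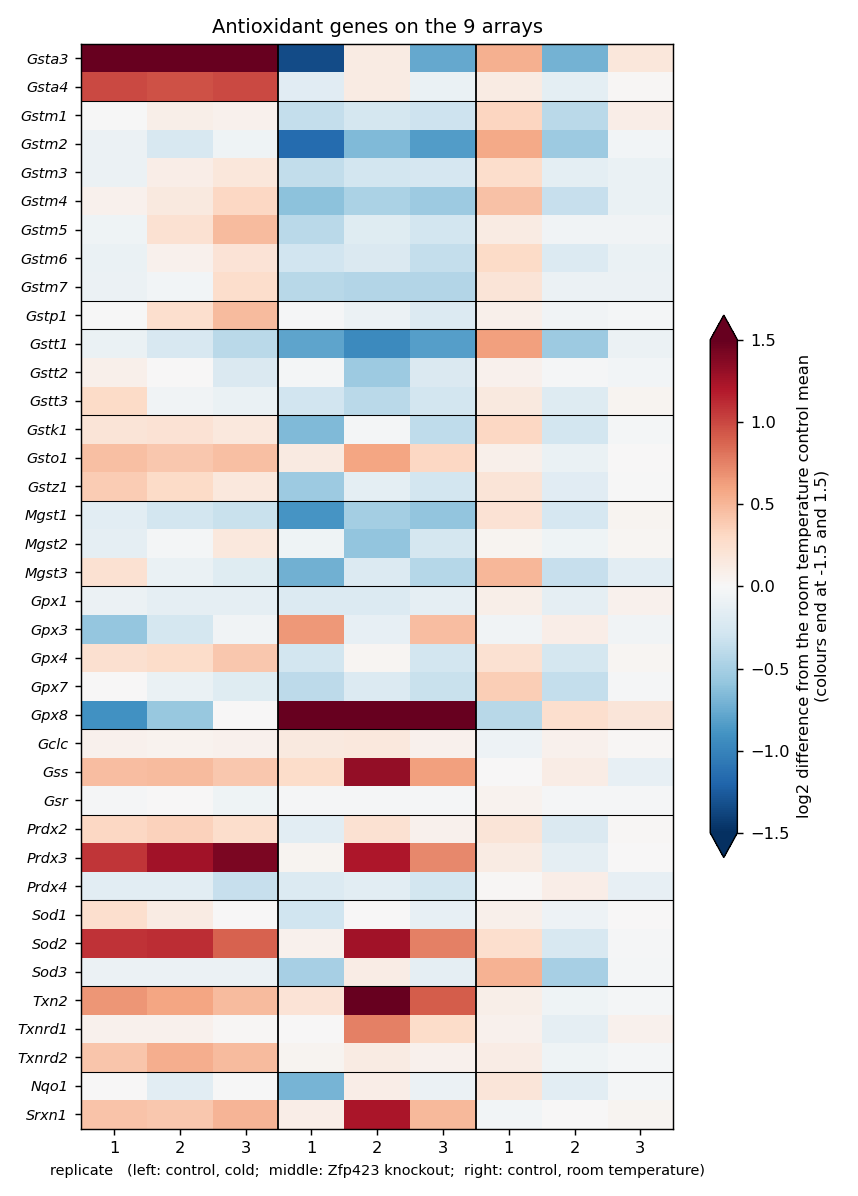
Log2 difference of each of the 38 tested genes from its room temperature control mean on each of the 9 arrays, ordered by class (horizontal lines); red is higher and blue lower, and colours end at -1.5 and 1.5. The transferases in the upper part are mostly blue in the 3 knockout columns, and Prdx3, Sod2 and Txn2 are red in the cold columns and in knockout replicates 2 and 3.

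Of 5 tested enzymes listed as mitochondrial, 1 passed in cold against controls and against knockouts, where 1.51% and 2.4% of all genes passed. In knockouts against controls 0 passed (limma, 3 at an unadjusted p under 0.05, where 16.2% of all genes lay). Txnrd2, the mitochondrial thioredoxin reductase, read 7.94, 8.07 and 8.00 in cold, 7.56, 7.64 and 7.59 in knockouts, and 7.63, 7.46 and 7.49 in controls. All cold arrays were above all others, and knockouts overlapped controls. Txnrd2 rose by 0.48 ± 0.06 log2 units in cold against control and by 0.41 ± 0.06 against knockout (limma adjusted p = 0.0164 and 0.0253, 1.39-fold and 1.33-fold), and stood at 0.07 ± 0.06 in knockouts against control (limma adjusted p = 0.606). The call against control was lost without control replicate 2 or 3, knockout replicate 3 or any 1 cold array (adjusted p between 0.0506 and 0.107). The call against knockout was lost without control replicate 3, knockout replicate 1 or 3 or any 1 cold array (adjusted p between 0.06 and 0.126).

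Txn2, the mitochondrial thioredoxin that Txnrd2 reduces, read 9.60, 9.53 and 9.42 in cold, 9.14, 10.49 and 9.85 in knockouts, and 9.03, 8.87 and 8.91 in controls. Both groups lay above the controls on every array, but the knockout arrays spread over more than 1 log2 unit. Neither difference passed, at 0.58 ± 0.30 in cold and 0.89 ± 0.30 in knockouts (limma adjusted p = 0.31 and 0.209). Prdx3, the mitochondrial peroxiredoxin that draws on Txn2, read 14.35, 14.54 and 14.69 in cold, 13.32, 14.49 and 14.00 in knockouts, and 13.40, 13.15 and 13.29 in controls. Prdx3 stood at 1.25 ± 0.27 in cold and 0.66 ± 0.27 in knockouts against controls (limma adjusted p = 0.0767 and 0.294). Sod2, the manganese superoxide dismutase of the mitochondrial matrix, read 9.32, 9.35 and 9.13 in cold, 8.31, 9.50 and 8.99 in knockouts, and 8.49, 8.00 and 8.22 in controls. Sod2 stood at 1.03 ± 0.28 in cold and 0.70 ± 0.28 in knockouts (limma adjusted p = 0.125 and 0.285).

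For Prdx3 and Sod2 all cold arrays were above all controls, and knockout replicate 1 lay within the control range while replicates 2 and 3 lay above it. Averaged over Gstk1, Prdx3, Sod2, Txn2 and Txnrd2, the arrays stood at 0.69, 0.75 and 0.69 in cold, -0.06, 0.82 and 0.41 in knockouts, and 0.18, -0.16 and -0.02 in controls, as log2 differences from the control mean. Of these 5, all had positive differences from control in cold, where 42.7% of all genes did, and 4 in knockouts, where 56.1% did. The list left out Mgst1, described above as partly mitochondrial, which stood at -0.25 in cold and -0.66 in knockouts. The signs therefore hold for the list as drawn. The thermogenic markers (8 of 8 tested) stood on the same arrays at 4.28, 4.06 and 3.85 in cold, 2.80, 5.41 and 4.53 in knockouts, and -0.38, 0.35 and 0.03 in controls. In knockouts the average of the 5 genes and the thermogenic markers were both lowest in replicate 1 and highest in replicate 2. This order was also seen in the mean over all 38 members (-0.22, 0.13 and -0.04) and in the adipocyte, endothelial and skeletal muscle markers. The macrophage, T cell, B cell and progenitor or fibroblast markers ran in the reverse order. Without knockout replicate 1, Prdx3, Sod2, Txn2 and the glutathione synthetase Gss passed in knockouts against controls along with Gpx8, 5 members in place of 1, while the calls over all genes went up as well, to 828 of 16930 in place of 61.

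**Figure D4:**
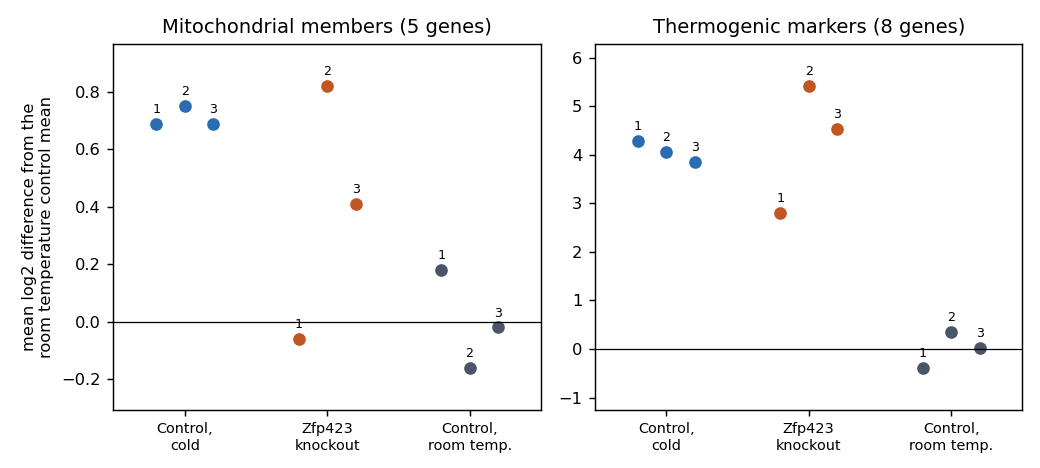
Mean log2 difference from the room temperature control mean over the 5 mitochondrial antioxidant genes (left) and the 8 thermogenic markers (right); each point is 1 array, marked with its replicate number. Knockout replicate 1 is lowest and replicate 2 highest of the knockouts in both panels, while the cold arrays stay within 0.69 to 0.75 and 3.85 to 4.28.

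Among the superoxide dismutases, peroxiredoxins and thioredoxin reductases, no tested cytosolic or secreted counterpart passed in any comparison. The mitochondrial Prdx3, Sod2 and Txn2 did not pass either, and Prdx1 and Prdx6 were not tested. Sod1, the copper and zinc superoxide dismutase, stood at 0.12 ± 0.10 in cold and -0.14 ± 0.10 in knockouts against controls, and the extracellular Sod3 at -0.08 ± 0.26 and -0.17 ± 0.26 (limma adjusted p between 0.489 and 0.882). Prdx2 stood at 0.31 ± 0.13 in cold and 0.05 ± 0.13 in knockouts, and Prdx4 of the endoplasmic reticulum at -0.22 ± 0.08 and -0.21 ± 0.08 (limma adjusted p between 0.191 and 0.889). The Prdx4 arrays of cold (7.06 to 7.24) and of knockouts (7.12 to 7.24) both lay below those of controls (7.28 to 7.50). The cytosolic thioredoxin reductase Txnrd1 was higher on knockout replicate 2 (10.28) than on replicates 1 and 3 (9.52 and 9.80), against 9.39 to 9.59 in controls, and did not pass (limma adjusted p = 0.382). Txn1, the cytosolic thioredoxin, is not among the 46 genes. It stood at -0.27 ± 0.18 in cold and -0.58 ± 0.18 in knockouts, below controls on every array, without passing (limma adjusted p = 0.419 and 0.187).

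No gene of glutathione synthesis or reduction passed, with 3 of 4 tested. Gss, which adds glycine in the last step, read 7.80, 7.81 and 7.75 in cold, 7.61, 8.66 and 7.96 in knockouts, and 7.34, 7.45 and 7.22 in controls. Both groups lay above controls on every array, at 0.45 ± 0.24 in cold and 0.74 ± 0.24 in knockouts (limma adjusted p = 0.324 and 0.195). Gclc, the catalytic subunit of the rate-limiting ligase, stood at 0.06 ± 0.05 in cold and 0.12 ± 0.05 in knockouts, and the glutathione reductase Gsr at -0.02 ± 0.04 in both (limma adjusted p between 0.278 and 0.796). Of the Nrf2 targets Nqo1, a quinone reductase, and Srxn1, which repairs overoxidised peroxiredoxins, only Srxn1 had arrays apart from controls. Srxn1 read 8.76, 8.74 and 8.84 in cold, 8.43, 9.55 and 8.82 in knockouts, and 8.29, 8.34 and 8.37 in controls, and did not pass at 0.45 ± 0.25 in cold or 0.60 ± 0.25 in knockouts (limma adjusted p = 0.343 and 0.295). Over 9 tested members of a list of Nrf2 targets, the median difference was 0.06 in cold and -0.05 in knockouts, with 1 and 0 past the threshold (limma, 2 and 3 at an unadjusted p under 0.05). Of all genes, 1.51% and 0.36% passed in these comparisons, and 20.3% and 16.2% lay under that unadjusted p. Nfe2l2 itself stood at 0.13 ± 0.08 and -0.11 ± 0.08 (limma adjusted p = 0.415 and 0.54).

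A list of 60 further genes of thiol and peroxide metabolism, 53 of them tested, was set beside the members. In cold against control, 2 of 53 rose and 0 fell, where 1.51% of all genes passed: Idh1, the cytosolic isocitrate dehydrogenase that yields NADPH, by 0.84 ± 0.15, and Msrb2, a mitochondrial methionine sulfoxide reductase, by 0.62 ± 0.10 (limma adjusted p = 0.0444 and 0.0374). In cold against knockout 4 of 53 rose and 0 fell, where 2.4% of all genes passed, Me1 by 2.34 ± 0.42, Pgd by 1.99 ± 0.36, Idh1 by 0.99 ± 0.15 and Msrb2 by 0.55 ± 0.10 (limma adjusted p between 0.0257 and 0.0426). Malic enzyme (Me1), 6-phosphogluconate dehydrogenase (Pgd) and Idh1 supply the NADPH that glutathione and thioredoxin reductases use and that fatty acid synthesis uses as well. Me1 read 17.06, 17.57 and 17.95 in cold, 14.26, 15.98 and 15.32 in knockouts, and 16.20, 15.99 and 16.14 in controls. Knockout replicate 1 was lowest for both Me1 and Pgd. In knockouts against controls 0 of 53 passed (limma, 8 at an unadjusted p under 0.05, where 16.2% of all genes lay). Sephs2, which makes selenophosphate for selenoproteins such as Gpx1 and Txnrd2, was singled out after its values were seen, at 1.54 ± 0.25 (limma adjusted p = 0.058). The difference was not particular to knockouts: cold against control stood at 1.20 ± 0.25 and cold minus knockout at -0.34 ± 0.25 (limma adjusted p = 0.0698 and 0.413). Knockout and cold arrays all lay above the controls.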

How the data were processed

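RNA from the inguinal fat pad was labelled with biotin and hybridised to Affymetrix Mouse Transcriptome Array 1.0, 1 array per sample, per the labels. The deposited log2 values of 72688 rows on 9 arrays were made with Affymetrix Expression Console, per the submitters' processing notes; version, summarisation, normalization and build were not given in the sources used here. The authors' values were read as log2 from their range, 1.84 to 19.93, and array medians of 5.28 to 5.34. They carry no detection calls, and 3 arrays a group limit the precision.

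Gene names came from the platform annotation, with repeats dropped and old symbols replaced through Entrez IDs and the RefSeq gene table of GRCm38.p6: 31245 rows name 1 gene and 1505 several, and the latter were not used. Rows of 1 gene with a mean at or above the median of all row means were kept, and the brightest row per gene was used (16930 genes from 17212 rows). limma 3.58.1 in R 4.3.3 (lmFit, eBayes, trend and robust off) was fitted over all 9 arrays with 3 group means (6 residual and 1.23 prior degrees of freedom), two-sided, with Benjamini-Hochberg adjustment over all genes and a threshold of 0.05. Errors of fold changes are moderated standard errors. The fit was tested on simulated data. Members and lists were chosen with earlier results of these data known, so no p-value was adjusted over a list and no list was tested as a set. Values of every array are given for members past the threshold and for the 4 with the largest difference in each comparison, and for some others to show their spread. The 18 alternatives cover normalization, filter, rows per gene, variance model, array weights, samples in the fit, the replicate number as a block and arrays left out.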

Additional observations from a re-analysis of the deposited data

How the results depend on the processing

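The number of members past the threshold in knockouts against controls, cold against controls and cold against knockouts was 1, 2 and 4 (limma, 38 tested). It stayed within 1.5 times of this in 17 recomputations and moved further in 37, and each of the 7 member calls kept its direction in all 18 alternatives. Quantile normalization gave 4 for cold against controls, adding Gsta3 and Prdx3. Array weights, whose estimation stopped before convergence, gave 35, 22 and 31 members, and 11847, 8986 and 9992 of 16930 genes. Testing every gene without a filter gave 0 for knockouts against controls (limma, 18 of 40 at an unadjusted p under 0.05), with 30768 genes in the adjustment. Fitting only the 2 groups compared gave 0 for knockouts against controls (limma, 11 at an unadjusted p under 0.05) and 9 for cold against controls, among them Prdx3, Sod2, Txn2, Gss and Srxn1. With the replicate number as a block the counts were 0, 0 and 1 (limma, 12, 8 and 14 at an unadjusted p under 0.05), the 1 being Gpx8. Deviations of same-numbered arrays from their group means had correlations over all genes of -0.46, -0.46 and 0.02 between knockouts and controls. They were 0.04, 0.05 and 0.01 between cold and controls and -0.24, 0.02 and 0.08 between cold and knockouts. Across numbers, knockout replicate 1 with control replicate 2 had 0.47 and knockout replicate 2 with control replicate 1 had 0.45. The other differently numbered pairs of knockouts and controls lay between -0.05 and 0.05. Such pairs lay between -0.05 and 0.02 for cold and controls and between -0.23 and 0.25 for cold and knockouts. Deviations within a group of 3 arrays depend on each other, so these values cannot tell whether the numbers pair the arrays. Without the 3 middle arrays, which leaves 2 per group and raises the spread by construction, the counts were 0, 0 and 0. Leaving out 1 array at a time gave 0 to 5, 0 to 6 and 0 to 9 members, and where the count was 0, 10 to 15, 7 and 12 members lay at an unadjusted p under 0.05. The cause of these shifts was not tested. The adjusted p ranged from 9.62e-08 to 0.949 for Gpx8 in knockouts against controls and from 3.58e-06 to 0.816 for Gsta4 in cold against controls. All 7 mu class genes stayed lower in knockouts than in controls in the 17 alternatives that tested all 7, and the 4 left by the stricter filter did too.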
